A study of Mus musculus with 6 samples.

Results

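Interferon-stimulated genes are the genes that cells switch on when interferons bind their receptors, and 35 of them were followed here in immortalized mouse embryonic fibroblasts with and without PME-1. The genes were taken by symbol from a list drawn up with earlier results of these data known, and all 35 were found among the 53762 gene symbols of the count files. PME-1 is the product of Ppme1 and takes the methyl mark off the catalytic subunit of the phosphatase PP2A. RNA was sequenced in 6 libraries, 3 labelled PME-1 knockout (KO) and 3 labelled wild type (WT), all from cells collected 24 hours after seeding in high-glucose medium. The labels give no other treatment, and they do not say how many embryos or clones the lines stand for.

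In the canonical pathway, a virus or stray nucleic acid triggers interferon production, and type I interferon acts on the receptor pair Ifnar1 and Ifnar2. The kinases Jak1 and Tyk2 then activate STAT proteins, among them Stat2, which works with Irf9 in the factor ISGF3. ISGF3 binds the interferon-stimulated response element (ISRE) in target promoters. The products block viral entry, translation, replication and release, and several of them are themselves part of the pathway, so that fibroblasts keep a low tonic level of these transcripts without infection.

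Total counts ranged from 34450993 to 44116310 per library. The libraries KO 1 and WT 1 stood apart from the others of their groups. Over 10762 genes averaging 5 CPM or more (CPM, read counts scaled to a common library size), the root mean square log2 difference was 0.27 between KO 2 and KO 3 and 0.23 between WT 2 and WT 3. It was 0.60 to 0.61 between KO 1 and the other KO libraries and 0.57 to 0.61 between WT 1 and the other WT libraries. Ppme1 was at 18.2, 14.9 and 18.9 CPM in KO libraries 1 to 3 and 78.4, 80.7 and 86.6 CPM in WT libraries 1 to 3. Sex-linked transcripts separated the libraries in the same way as genotype, with Xist at 0.117 to 0.310 CPM in KO and 370 to 490 CPM in WT, so genotype and the sex of the source embryos cannot be told apart here.

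Fibroblast markers were present in every library, and those of lymphocytes were at or near 0. The summed level of 10 fibroblast markers was 13906 to 16246 CPM in KO and 16921 to 23132 CPM in WT, and 3 of them, Col1a1, Pdgfrb and S100a4, fell in KO (edgeR, adjusted over all tested genes). Thy1 and Pdgfra were low among them, with Thy1 at 4.58 to 9.36 CPM in KO and 1.03 to 3.47 CPM in WT, and Pdgfra at 2.53 to 8.95 CPM in KO and 4.72 to 14.2 CPM in WT. All of 6 lymphocyte and dendritic cell markers had 0 counts in the KO libraries, and in WT their summed level was 0 to 0.0924 CPM. Of 8 macrophage markers, 3 had 0 counts in every library, and the list summed to 7.81 to 10.2 CPM in KO and 7.92 to 8.21 CPM in WT, mostly from Cd14 and Cd68, which fibroblasts also express. The defining macrophage genes Adgre1, Itgam and Fcgr1 were among those with 0 counts. Of 6 endothelial markers 1 had 0 counts in every library, and the list summed to 2.44 to 3.44 CPM in KO and 0.878 to 2.19 CPM in WT. The 6 epithelial markers summed to 59.7 to 115 CPM in KO and 2.33 to 2.66 CPM in WT. In KO nearly all of this was Krt18, at 57.5 to 108 CPM, against 1.04 to 1.78 CPM in WT, while Epcam was at 0.469 to 1.09 CPM in KO and 0.194 to 1.18 CPM in WT. Krt5 and Krt14 had 0 counts throughout. The keratins Krt8 and Krt18 and the endothelial marker Tek rose. The part of these markers in the differences described here was not tested.

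As a group, the 35 interferon-stimulated genes were highest in KO 1 and lowest in WT 1. Their summed level was 2069, 629 and 597 CPM in KO libraries 1 to 3 and 290, 537 and 545 CPM in WT libraries 1 to 3. The KO 1 sum stood far above the rest, while KO 2 and KO 3 lay close to WT 2 and WT 3. KO 1 was the highest of the 6 libraries for 35 of 35 genes, against 24.2% of all tested genes. WT 1 was the lowest for 33 of 35, against 21.4%, and both held for 33, against 12.8%. In bulk RNA, a change in the share of responding cells and a change in RNA per cell cannot be told apart.

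**Figure D1:**
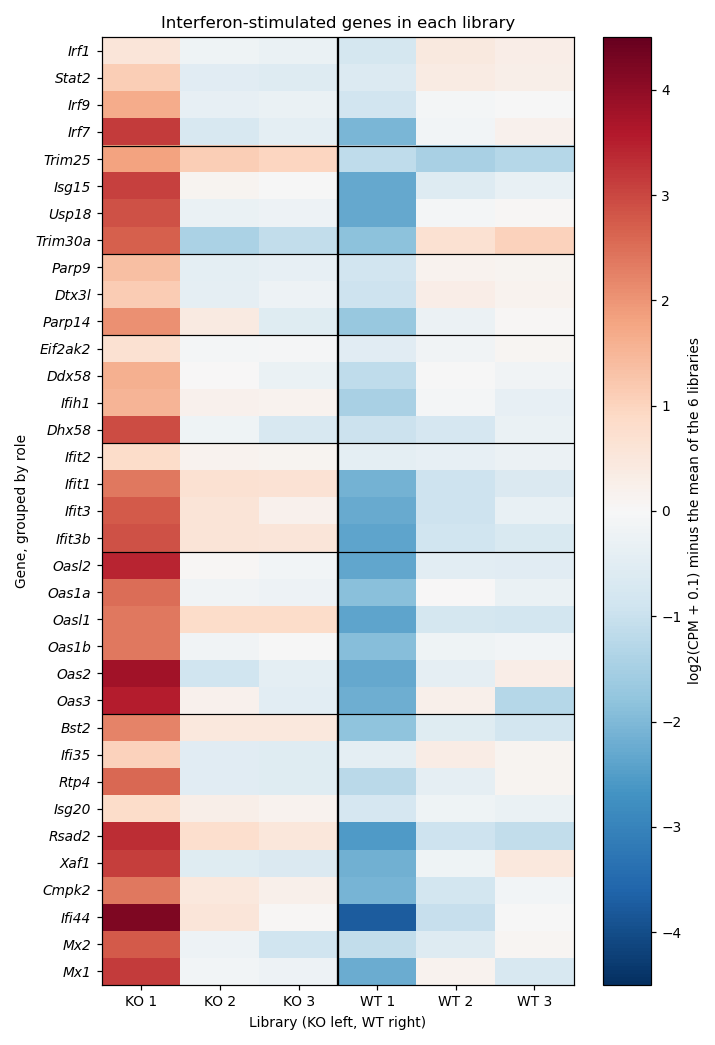
Log2(CPM + 0.1) of each of the 35 genes in each library, minus the mean of the 6 libraries, with KO libraries on the left, WT libraries on the right and horizontal lines between role groups. The KO 1 column is the highest for every gene and the WT 1 column the lowest for 33 of 35, while Trim25 is high in all 3 KO libraries.

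Tested across the 3 libraries of each group, few of these genes passed. In edgeR's quasi-likelihood fit over 15223 genes with Benjamini-Hochberg adjustment at 0.05, 7.4% of tested genes were called, 3.55% higher and 3.86% lower in KO. All 35 interferon-stimulated genes were expressed well enough to be tested, and 1 rose and 0 fell, a share at the background. The gene that rose was Trim25. At an unadjusted p under 0.05 there were 14 of 35 (40.0%), against 22.2% of all tested genes. With DESeq2, which gave an adjusted p for 27 of the 35, 11 were higher and 0 lower, against a background of 5.72% higher. These were Trim25, the 4 IFIT genes, Bst2, Cmpk2, Ifih1, Isg20, Oasl1 and Rsad2. The genes left without an adjusted p were Irf7, Isg15, Usp18, Dhx58, Oas2, Oas3, Oasl2 and Ifi44. In these KO 1 was 8.20-fold to 31.4-fold above the mean of KO 2 and KO 3. Some genes that were kept had like ratios, such as Trim30a at 17.2. The median log2 fold change (KO against WT) was 2.04 for the 35 genes and 0.011 for all tested genes, and 34 of 35 were positive. Without KO 1 that median was 0.47, and without both libraries numbered 1 it was 0.066. Whether the replicates are separate cultures is not stated in the labels, so p-values measure the spread between these libraries, which may be technical.

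**Figure D2:**
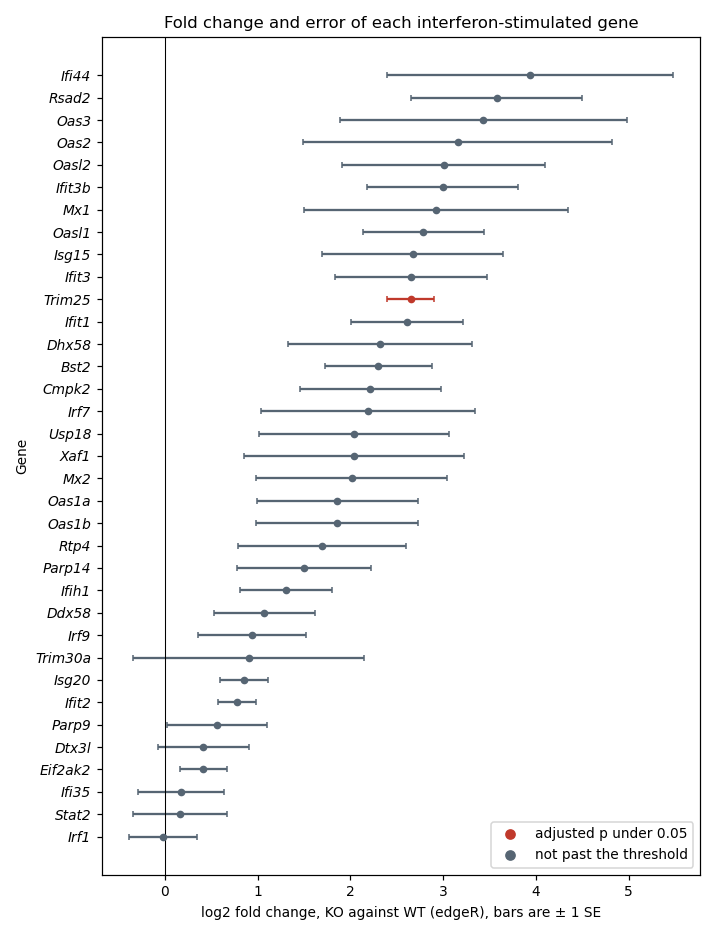
Log2 fold change of each gene, KO against WT, from edgeR, with bars of 1 standard error to each side, sorted by size. Trim25 has a short bar and is past the threshold, while genes with larger fold changes such as Ifi44 and Rsad2 have long bars.

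To separate genes that followed genotype from genes that followed single libraries, the levels were compared in 2 ways on the log2 CPM scale. One difference was KO 1 minus WT 1, the other the mean of KO 2 and KO 3 minus the mean of WT 2 and WT 3. A gene was said to follow genotype where all KO libraries lay on one side of all WT libraries and the second difference had that direction and a size of at least 1. It was said to follow single libraries where KO 1 and WT 1 were the 2 extremes and the second difference was under 1 in size. By this description 7 of 35 genes followed genotype, all higher in KO, against 4.68% of tested genes. These were Trim25, Ifit1, Ifit3, Ifit3b, Oasl1, Bst2 and Rsad2. A further 26 (74.3%) followed single libraries, against 21.9%, and 2 were mixed. The nearest to the limit of 1 were Ifit3, inside it at 1.02, and Stat2, Ifi44 and Cmpk2, outside it at -0.87, 0.86 and 0.83. All KO libraries lay above all WT libraries for 14 of 35 genes (40.0%), against 14.6% of tested genes.

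Among the 4 libraries KO 2, KO 3, WT 2 and WT 3, the genes went in both directions. Both KO libraries lay above both WT libraries for 14 of 35 genes, against 37.1% of tested genes, and below them for 12 of 35, against 37.5%. Both shares were close to the background. Refitted on those 4 libraries, edgeR called 11 genes higher (31.4%, background 23.3%) and 7 lower (20%, background 24.6%), again near the background. Higher were Trim25, the 4 IFIT genes, Bst2, Ifih1, Isg15, Isg20, Oasl1 and Rsad2. Lower were Dtx3l, Ifi35, Irf1, Irf9, Parp9, Stat2 and Trim30a. The median difference over the 35 genes was 4.43 between KO 1 and WT 1 and 0.059 between the other pairs, both in log2 CPM.

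**Figure D3:**
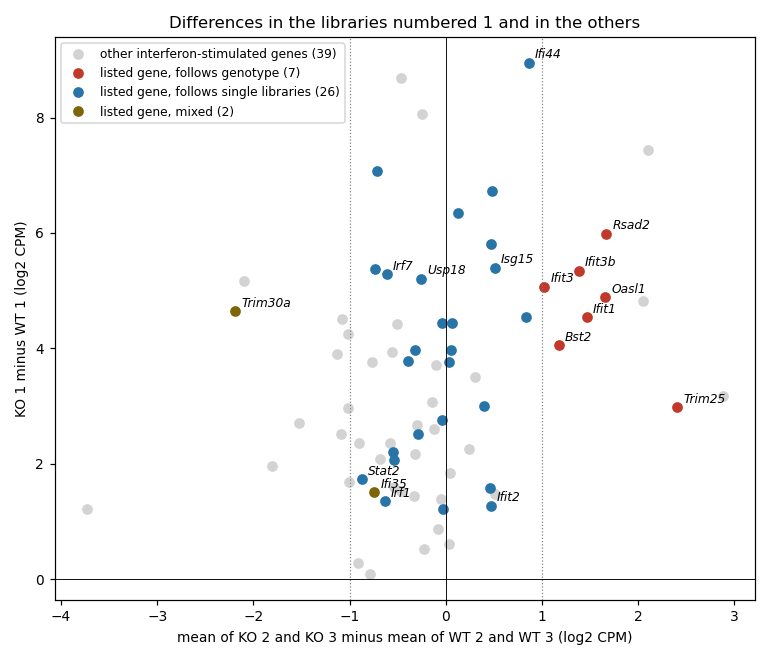
For each gene, the difference KO 1 minus WT 1 (vertical axis, log2 CPM) against the mean of KO 2 and KO 3 minus the mean of WT 2 and WT 3 (horizontal axis, log2 CPM), with dotted lines at the size limit of 1. All 35 listed genes lie above 0 on the vertical axis, while on the horizontal axis they spread from Trim30a at -2.19 to Trim25 at 2.41, and 39 other interferon-stimulated genes are in grey.

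Promoter sequences were examined because the genes moved together and their shared promoter element is known. RefSeq windows of 250 bases before to 50 bases after the gene start (GRCm38.p6) were at hand for 26 of the 35 genes. The ISRE core was searched as GAAANNGAAA on both strands. At least 1 core stood in the window of 13 of 26 genes, against 3.99% of 27025 genes with a window. The core of the other interferon element, the GAS, was searched as TTCNNNGAA, which reads the same on both strands, and stood in 7 of 26 (26.9%), against 9.55%. Of the genes with a window, the ISRE core was in 5 of 7 that followed genotype and in 7 of 17 that followed single libraries. Overlapping cores were counted each, and a match is a description of letters, not a shown binding site. The stretches below are the 100 bases before the RefSeq start of Trim25, the gene past the threshold, which had 0 cores in its window. They also give 60 bases around the cores of the 6 most abundant genes with a match. RefSeq and GENCODE starts can differ, and the GENCODE start of Trim25, 88999376, lies within its printed stretch. For Bst2 and Stat2 the bases after the RefSeq start were not found in a GENCODE transcript. Capitals mark the GAAA or TTTC parts of each core, and each sequence is written 5′ to 3′ on the strand of the gene.
Trim25 (chr11:88999303-88999402, plus strand): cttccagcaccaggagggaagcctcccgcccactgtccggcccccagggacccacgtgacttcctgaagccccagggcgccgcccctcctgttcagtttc
Bst2 (chr8:71537565-71537624, minus strand): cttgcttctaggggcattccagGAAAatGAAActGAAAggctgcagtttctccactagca
Eif2ak2 (chr17:78882545-78882604, minus strand): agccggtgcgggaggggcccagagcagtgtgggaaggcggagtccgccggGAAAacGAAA
Stat2 (chr10:128270251-128270310, plus strand): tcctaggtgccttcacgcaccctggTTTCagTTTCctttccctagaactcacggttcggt
Isg15 (chr4:156200856-156200915, minus strand): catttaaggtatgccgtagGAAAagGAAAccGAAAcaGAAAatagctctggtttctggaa
Ddx58 (chr4:40239798-40239857, minus strand): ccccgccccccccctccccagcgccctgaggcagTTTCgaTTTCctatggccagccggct
Ifit1 (chr19:34640769-34640828, plus strand): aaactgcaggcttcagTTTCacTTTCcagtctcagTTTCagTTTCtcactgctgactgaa
Isg15 had 3 overlapping cores, Bst2 and Ifit1 had 2 each, and the single core of Eif2ak2 and of Ddx58 lay after the start.

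Trim25 rose in KO cells and was the clearest case of a gene that followed genotype. It encodes a ubiquitin ligase that assists the RNA sensor RIG-I, and lies on chromosome 11 from 88999376 to 89020293 (GENCODE M21, GRCm38). Its level was 119, 72.4 and 66.2 CPM in KO libraries 1 to 3 and 15.0, 12.2 and 13.9 CPM in WT libraries 1 to 3. The lowest KO library stood above the highest WT library by a wide margin, and WT 1 was the highest, not the lowest, of the WT libraries. The mean was 85.8 ± 28.8 CPM in KO and 13.7 ± 1.44 CPM in WT (SD, n = 3 each), a 6.27-fold rise with a log2 fold change of 2.65 (SE 0.25, edgeR adjusted p = 0.00249). Leaving out each library in turn kept the call, with log2 fold changes of 2.34 to 2.82.

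The 4 IFIT genes, whose proteins bind foreign RNA and hold back its translation, were higher in every KO library than in any WT library. None passed the edgeR test with all libraries. DESeq2 called all 4, with adjusted p-values of 5.01e-06 for Ifit1, 0.0128 for Ifit2, 0.0412 for Ifit3 and 0.000127 for Ifit3b. The edgeR refit without both libraries numbered 1, in which 23.3% of all tested genes were called higher, also called all 4 higher. Its adjusted p-values were 2.29e-06 for Ifit1, 0.000648 for Ifit2, 0.00336 for Ifit3 and 0.00138 for Ifit3b. With no filter on low counts edgeR also called Ifit1 (adjusted p = 0.0462). Ifit1 was at 106, 32.4 and 31.9 CPM in KO and 4.52, 10.6 and 12.7 CPM in WT. KO 2 and KO 3 agreed closely and stood 2.76-fold above the mean of WT 2 and WT 3, and the log2 fold change over all libraries was 2.61 (SE 0.61, edgeR adjusted p = 0.0511). Ifit2 was at 89.7, 57.3 and 54.7 CPM in KO and 37.1, 38.9 and 42.1 CPM in WT. It had the smallest spread of the family, and WT 1 differed little from the other WT libraries (log2 fold change 0.77, SE 0.20, edgeR adjusted p = 0.0760, and 0.51 with adjusted p = 0.0477 without KO 1). Ifit3 was at 58.5, 12.7 and 9.75 CPM in KO and 1.69, 4.44 and 6.70 CPM in WT. Ifit3b was at 24.6, 4.95 and 4.90 CPM in KO and 0.555, 1.71 and 2.02 CPM in WT. These 2 are close copies of each other, so how reads were divided between them is uncertain. In both, the order of the libraries was that of Ifit1, with edgeR adjusted p-values of 0.114 for Ifit3 and 0.0807 for Ifit3b. The 4 genes lie in 1 cluster on chromosome 19.

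Bst2, or tetherin, which holds budding virions on the cell surface, had the highest level per length. It was at 236, 70.0 and 69.5 CPM in KO and 14.2, 33.9 and 28.2 CPM in WT. The groups did not overlap, with a 2.25-fold ratio between the means of KO 2 with KO 3 and of WT 2 with WT 3, and a log2 fold change of 2.30 over all libraries (SE 0.58, edgeR adjusted p = 0.0648). Divided by exon length, its mean over the 6 libraries was 83.4 CPM per kb, against 54.1 CPM per kb for Isg15 and 0.152 CPM per kb for Oas3, the lowest of the 35. Rsad2, or viperin, which makes a chain-terminating nucleotide, was at 34.7, 5.77 and 4.88 CPM in KO and 0.499, 1.73 and 1.54 CPM in WT. Every KO library lay above every WT library (log2 fold change 3.58, SE 0.92, edgeR adjusted p = 0.0699). Its neighbour on chromosome 12, Cmpk2, a mitochondrial nucleotide kinase, was at 17.9, 4.72 and 3.96 CPM in KO and 0.721, 1.85 and 3.12 CPM in WT. Here the groups also did not overlap, but KO 3 and WT 3 were close. Oasl1, which in mice holds back Irf7 translation, was at 14.5, 4.90 and 4.96 CPM in KO and 0.444, 1.55 and 1.51 CPM in WT. It did not overlap between groups (log2 fold change 2.79, SE 0.65, edgeR adjusted p = 0.0511).

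**Figure D4:**
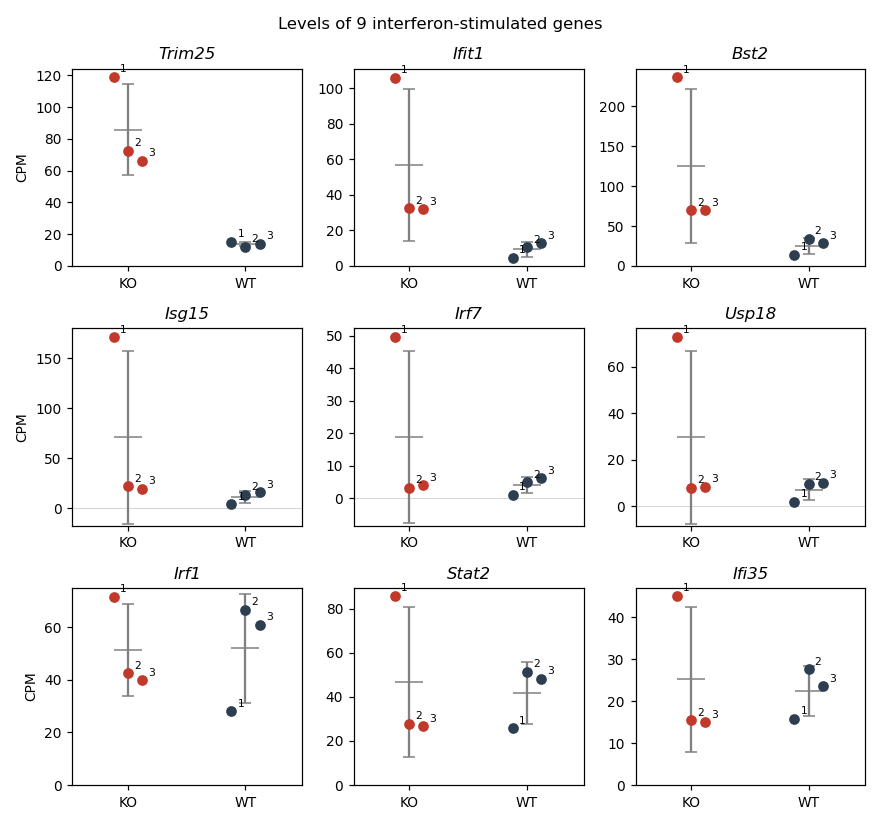
CPM of 9 genes in each KO library (red, left) and WT library (dark, right), numbered by replicate, with grey bars for the mean and 1 SD to each side. Trim25, Ifit1 and Bst2 have all KO points above all WT points, Isg15 does so by a small margin, and for Irf7, Usp18, Irf1, Stat2 and Ifi35 the points KO 2 and KO 3 lie below WT 2 and WT 3.

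The transcription factors of the response followed single libraries, and KO 2 and KO 3 lay below WT 2 and WT 3 for all 4. Irf1, a factor induced by interferon gamma and by inflammatory signals, was at 71.4, 42.5 and 39.8 CPM in KO and 28.1, 66.6 and 60.9 CPM in WT. The groups overlapped fully, with a log2 fold change of -0.018 (SE 0.37), and the sign of so small a value turned with the scaling. Stat2 was at 85.8, 27.8 and 26.7 CPM in KO and 25.8, 51.3 and 48.3 CPM in WT. KO 2, KO 3 and WT 1 shared one level, WT 2 and WT 3 a level 1.83-fold above the mean of KO 2 and KO 3, and KO 1 exceeded all. Irf9 was at 94.9, 23.1 and 24.2 CPM in KO and 16.6, 28.0 and 29.7 CPM in WT. Irf7, the factor that amplifies interferon production, was at 49.4, 3.26 and 3.99 CPM in KO and 1.22, 4.97 and 6.20 CPM in WT. KO 1 thus held 40.5 times the level of WT 1, while KO 2 and KO 3 together were below WT 2 and WT 3. None of the 4 passed the test with all libraries. Refitted without both libraries numbered 1, Irf1, Irf9 and Stat2 were called lower, with log2 fold changes of -0.63, -0.29 and -0.87. In that refit 24.6% of all tested genes were called lower.

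In the ISG15 system, Isg15 and Usp18 followed single libraries. Isg15, a ubiquitin-like modifier that is attached to many proteins, was at 171, 22.03 and 19.6 CPM in KO and 3.99, 13.4 and 15.9 CPM in WT. KO 1 was 8.20-fold above the mean of KO 2 and KO 3, and the other WT libraries were 3.67-fold above WT 1. The groups did not overlap, but the gap between KO 3 and WT 3 was small beside the spread (70.7 ± 86.5 CPM in KO and 11.1 ± 6.27 CPM in WT, SD, n = 3 each; edgeR adjusted p = 0.169). Without both libraries numbered 1 Isg15 was called higher, at a log2 fold change of 0.51 (edgeR adjusted p = 0.0108). In that refit 23.3% of all tested genes were called higher. Usp18, the protease that removes Isg15 and damps the interferon receptor, was at 72.6, 7.93 and 8.46 CPM in KO and 1.91, 9.40 and 10.2 CPM in WT. Its KO 2 and KO 3 values lay just below WT 2 and WT 3. Trim30a, a TRIM protein of rodents that restrains NF-kB signalling, was at 13.0, 0.657 and 0.852 CPM in KO and 0.472, 3.16 and 4.09 CPM in WT. WT 2 and WT 3 averaged 4.81 times the level of KO 2 and KO 3, the widest such gap towards WT among the 35 genes. Without both libraries numbered 1 it was called lower, at a log2 fold change of -2.27, as were 24.6% of all tested genes.

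The ADP-ribosylation genes Parp9, Dtx3l and Parp14 followed single libraries. Parp9 and Dtx3l, whose products form one complex, were alike in pattern. Parp9 was at 79.0, 22.8 and 23.8 CPM in KO and 17.1, 34.5 and 33.6 CPM in WT. Dtx3l was at 60.4, 20.5 and 23.7 CPM in KO and 14.5, 33.5 and 30.5 CPM in WT. In both, KO 2 and KO 3 lay between WT 1 and the other WT libraries. Their exons overlap on opposite strands of chromosome 16, and since the strand setting of the counting is not given in the sources used here, reads may be shared. Parp14, a mono-ADP-ribosyltransferase, was at 50.2, 16.2 and 8.25 CPM in KO and 3.63, 10.1 and 12.7 CPM in WT, so that KO 2 lay above and KO 3 below WT 2.

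The RNA sensors followed single libraries by the description above, though Ifih1 was also higher in every KO library than in any WT library. Ddx58, which encodes RIG-I, the sensor of short RNA with free phosphate ends, was at 100.3, 33.5 and 26.5 CPM in KO and 14.8, 32.0 and 29.3 CPM in WT. Apart from KO 1 and WT 1 the 4 libraries agreed within a narrow range. Ifih1, which encodes MDA5, the sensor of long double-stranded RNA, was at 50.2, 19.8 and 19.6 CPM in KO and 6.27, 16.4 and 13.6 CPM in WT. It did not overlap between groups (log2 fold change 1.30, SE 0.49, edgeR adjusted p = 0.183). DESeq2 called Ifih1 higher (adjusted p = 0.0332), as did edgeR without both libraries numbered 1 (log2 fold change 0.39, adjusted p = 0.0364). The shares of all genes called higher in those fits were 5.72% and 23.3%. Eif2ak2, which encodes PKR, the kinase that halts translation on double-stranded RNA, was at 113, 65.6 and 67.5 CPM in KO and 48.7, 62.3 and 73.6 CPM in WT. It had the smallest ratio of KO 1 to WT 1 of the 35 genes, 2.31. Dhx58, which encodes the regulator LGP2, had a ratio of 16.2 between KO 1 and WT 1 and of 1.05 between the means of the other KO and WT libraries.

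In the OAS family, whose enzymes make the oligoadenylates that switch on RNase L, the genes other than Oasl1 followed single libraries. Oas1a was at 51.4, 7.98 and 7.61 CPM in KO and 2.33, 8.96 and 7.11 CPM in WT. Oasl2 was at 77.0, 7.30 and 6.58 CPM in KO and 1.33, 5.04 and 4.91 CPM in WT. KO 1 exceeded the mean of KO 2 and KO 3 by 6.59-fold for Oas1a and 11.1-fold for Oasl2. Oas2 and Oas3 had 0 counts in WT 1, where KO 1 was at least 80.8-fold and 63.4-fold higher against a floor of 3 counts in WT 1. Oas1b, which GENCODE lists as a polymorphic pseudogene and which has close copies beside it, is uncertain in its reads.

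The remaining effectors showed the same extremes. Rtp4, a small chaperone of membrane receptors with antiviral action, was at 59.7, 6.94 and 6.75 CPM in KO and 4.30, 7.44 and 10.9 CPM in WT. Ifi44, an interferon-induced cytoplasmic protein, was at 24.8, 1.88 and 1.29 CPM in KO and 0, 0.554 and 1.24 CPM in WT. Against the floor of 3 counts in WT 1, KO 1 was at least 298-fold higher for Ifi44, the widest gap of the list, and at least 48.8-fold higher for Mx1, a dynamin-like GTPase that also had 0 counts in WT 1. Ifi35, which acts with Nmi, was at 45.1, 15.4 and 15.0 CPM in KO and 15.9, 27.6 and 23.6 CPM in WT. For this gene WT 1 was not the lowest, lying just above KO 2 and KO 3. Isg20, an RNA exonuclease, was at 15.2, 10.3 and 9.52 CPM in KO and 5.08, 7.42 and 6.93 CPM in WT, with no overlap (log2 fold change 0.85, SE 0.26, edgeR adjusted p = 0.109). Xaf1 and Mx2 had ratios of KO 1 to WT 1 of 44.6 and 17.3, while their means in KO 2 and KO 3 lay below those in WT 2 and WT 3.

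Upstream of these genes, interferon transcripts were at the detection limit. Of 12 listed ligand genes 10, among them Ifnb1, Ifng and Ifna1, had 0 counts in every library, against a floor of 3 counts at 0.0689 to 0.0881 CPM. Ifna4 had 3 counts, all in WT 2, and Ifnz was at 0.469 to 0.764 CPM in KO and 0.444 to 0.670 CPM in WT. Interferon made before the harvest, or secreted outside these cells, would not be seen in such counts. Of 6 receptor genes 0 were called at an edgeR adjusted p under 0.05 (2 at an unadjusted p under 0.05). Those 2 were Ifngr1 and Ifnlr1. Ifngr1 was lower in KO, at a log2 fold change of -0.29 (SE 0.12, edgeR adjusted p = 0.199). Ifnlr1, low in level, was at 1.63, 1.27 and 2.09 CPM in KO and 0.472, 0 and 0.275 CPM in WT. Its log2 fold change was 2.74 (SE 1.02, edgeR adjusted p = 0.176), and it was the 1 receptor gene that followed genotype. For the other 5, KO 2 and KO 3 lay below WT 2 and WT 3, as they did for 37.5% of all tested genes. Ifnar1 was at 123, 93.3 and 86.9 CPM in KO and 95.1, 129 and 127 CPM in WT, and Ifngr2 was at 89.7, 58.5 and 58.9 CPM in KO and 70.5, 89.4 and 91.1 CPM in WT. Both lay in a narrow range beside the genes listed above.

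Of 11 JAK-STAT genes and inhibitors, 0 rose and 1 fell, against 3.55% and 3.86% of all tested genes. The kinase gene Jak1 was even across libraries, at 228, 262 and 248 CPM in KO and 236, 246 and 253 CPM in WT. Ptpn11, which encodes the phosphatase SHP2, was at 296, 405 and 400.2 CPM in KO and 377, 304 and 314 CPM in WT. The gene that fell was Pias1, a SUMO ligase that restrains STAT signalling, at 41.4, 46.8 and 42.2 CPM in KO and 82.9, 90.7 and 101.9 CPM in WT (2.11-fold lower, log2 fold change -1.08, SE 0.12, edgeR adjusted p = 0.00391). Pias1 starts at 62878368 on chromosome 9, in a stretch from 55 to 75 Mb in which 71 of 125 genes averaging 5 CPM or more fell, with a median log2 fold change of -0.81.

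Of 20 genes of nucleic acid sensing present in the files, 19 were tested. Of these 1 rose and 1 fell, against 3.55% and 3.86% of all tested genes. Cgas, the sensor of cytosolic DNA, rose 2.31-fold, at 26.2, 32.2 and 30.1 CPM in KO and 16.0, 10.4 and 11.9 CPM in WT (log2 fold change 1.21, SE 0.19, edgeR adjusted p = 0.0155). In Cgas KO 1 was the lowest KO library and WT 1 the highest WT library, an order opposite to that of the 35 genes. Its call was lost without KO 2 (adjusted p = 0.0755), KO 3 (0.0735), WT 2 (0.0641) or WT 3 (0.0863). It was also lost with the replicate number as a block (0.184). Rnaseh2a, the catalytic subunit of the enzyme that removes RNA from DNA hybrids, fell 1.75-fold, at 48.9, 35.9 and 37.0 CPM in KO and 64.2, 76.2 and 72.2 CPM in WT (edgeR adjusted p = 0.0271). That call was lost without KO 2 (adjusted p = 0.123), KO 3 (0.138), WT 2 (0.112) or WT 3 (0.114). The same held with upper-quartile factors (0.0574), library sizes alone (0.0734) or the replicate number as a block (0.243). Samhd1, which degrades deoxynucleotides, was at 153, 187 and 183 CPM in KO and 218, 173 and 185 CPM in WT. Adar, which edits double-stranded RNA, was at 101.2, 64.5 and 59.9 CPM in KO and 51.7, 55.5 and 56.4 CPM in WT.

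Other interferon-stimulated genes outside the list of 35 showed both patterns. Of 44 such genes 39 were tested, 2 rose and 0 fell, against 3.55% and 3.86% of all tested genes. Over the 39 the median log2 fold change was 0.72, and KO 1 was the highest library for 36, against 24.2% of all tested genes. Cxcl10, a chemokine for T cells, rose 8.10-fold, at 48.2, 36.1 and 31.2 CPM in KO and 5.27, 4.34 and 4.66 CPM in WT (edgeR adjusted p = 0.00106). Like Trim25 it was highest in KO 1 but also well above every WT library in KO 2 and KO 3. For Cxcl10 too, WT 1 was not the lowest WT library. Ccl5, another chemokine, rose 9.16-fold, at 32.6, 8.49 and 10.5 CPM in KO and 1.11, 2.06 and 2.43 CPM in WT (edgeR adjusted p = 0.0276). It was 5.04-fold higher without KO 1. The call was lost without KO 3 (adjusted p = 0.0631), WT 1 (0.0632), WT 2 (0.110) or WT 3 (0.102). It was also lost with limma-voom (0.0675) and with the replicate number as a block in edgeR (0.243). Ifitm3, which blocks viral fusion, was at 283, 90.5 and 82.3 CPM in KO and 88.3, 175 and 172 CPM in WT, and Ifitm2 was at 138, 94.9 and 89.0 CPM in KO and 113, 172 and 175 CPM in WT. In both, KO 2 and KO 3 lay below WT 2 and WT 3.

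The 10 guanylate-binding GTPase genes summed to 115, 14.6 and 15.3 CPM in KO and 4.66, 24.0 and 27.6 CPM in WT, so that KO 2 and KO 3 lay below WT 2 and WT 3. The 10 MHC class I genes summed to 1510.3, 726 and 733 CPM in KO and 365, 583 and 561 CPM in WT. The sums of all KO libraries lay above those of all WT libraries. Gene by gene this held for 5 of the 10, against 14.6% of tested genes. For 4 of the 10, KO 2 and KO 3 lay below WT 2 and WT 3, against 37.5%. In the edgeR test 3 of the 10 rose, against 3.55%, and 0 fell. The genes that rose were H2-K1 (adjusted p = 0.0152), H2-D1 (0.0275) and H2-Q7 (0.0479). The difference between these families was not tested.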

How the data were processed

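RNA-seq raw read counts per gene symbol, deposited by the authors as 1 column per library, were read for 6 libraries. Per the submitters' processing notes, the tools included Trim Galore 0.6.6 and HISAT2 2.2.1, and the notes name a human build although the symbols are those of mouse. The counting program, its annotation and its strand setting are not stated. The library kit keeps strand, per the labels' protocols. Titles gave the groups, since in KO 2 and KO 3 the genotype field carries other numbers after PME. Positions and exon lengths are from GENCODE M21 on GRCm38, where 92.9% of symbols were found by name, and promoter windows from RefSeq (GRCm38.p6). By that annotation, exons of 9 of the 35 genes overlap another gene on the opposite strand and exons of 3 (Irf9, Parp14 and Rtp4) overlap one on the same strand.

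The test was edgeR 4.0.16 under R 4.3.3 (filterByExpr, TMM factors, robust quasi-likelihood fit, Benjamini-Hochberg adjustment over 15223 genes, threshold 0.05). CPM used TMM-scaled library sizes, and log2 CPM for library patterns a prior count of 2. The SE is the size of the log2 fold change divided by the square root of F. A floor of 3 counts covers counting error only. Marker and MHC class I genes past the threshold are named without levels in every library. Among the 35 genes, levels in every library are given for those past the threshold and for the 3 most abundant of each role group. They are also given for those whose groups do not overlap and that average 1 CPM or more. Outside the 35 they are given for pathway genes past the threshold, the 2 most abundant of each pathway list, Ppme1 and Ifnlr1. One gene that this rule names is not reported here. The genes, lists and patterns were chosen with earlier results of these data known. Alternatives were DESeq2 1.42.0, limma-voom (limma 3.58.1), other scaling, other filters, the replicate number as a block, and libraries left out. The fit was tested on simulated data.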

Additional observations from a re-analysis of the deposited data

How the results depend on the processing

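Over all genes, edgeR called 1127, against 1956 with DESeq2, 8 with the replicate block, 332 to 1216 when 1 library was left out, and 7408 without both libraries numbered 1. Of the 35 genes 1 was called higher, against 11 with DESeq2, 3 with no filter, 0 with the replicate block, 1 to 2 when 1 library was left out, and 11 (with 7 lower) without both libraries numbered 1. Deviations from the group mean correlated at -0.73, -0.57 and -0.59 between same-numbered libraries, and no library correlated best with its own number. KO 1 and WT 1 stand far from their groups, and the deviations of each group sum to 0, so these values are not independent. They cannot decide whether the replicate numbers pair the samples. Under the block the edgeR adjusted p was 0.0647 for Trim25, 0.0518 for Cxcl10 and 0.102 for Pias1. The median log2 fold change of 2.04 was 0.47 to 2.54 when 1 library was left out, lowest without KO 1, and 0.066 without both libraries numbered 1. Genes that followed genotype numbered 3 at a size limit of 1.5, against 7, and genes that followed single libraries 16 at a limit of 0.5, against 26.

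For some genes the direction turned. With 1 library left out the log2 fold change was -0.34 to 0.20 for Irf1, -0.070 to 1.29 for Irf9, -0.62 to 0.46 for Stat2, -0.29 to 0.88 for Parp9, -0.25 to 0.71 for Dtx3l, -0.15 to 2.16 for Rtp4 and -0.56 to 0.46 for Ifi35. Irf1 was at 0.056 with upper-quartile factors, 0.054 with library sizes alone, 0.015 with limma-voom, 0.024 with the filter at a mean of 5 CPM and 0.0045 with the block. Stat2 and Ifi35 were at -0.015 and -0.0060 with limma-voom and at -0.053 and -0.025 with the block. Without both libraries numbered 1 the values were -0.29 for Irf9, -0.87 for Stat2, -0.26 for Usp18, -0.55 for Parp9, -0.54 for Dtx3l, -0.031 for Ddx58, -0.030 for Eif2ak2, -0.046 for Oas1a, -0.43 for Rtp4 and -0.75 for Ifi35. Among the less abundant genes, Irf7 turned to -0.19 without KO 1 and -0.63 without both, Xaf1 to -0.33 and -0.79, Oas2 to -0.31 and -0.87, Mx2 to -0.064 and -0.32, and Trim30a to -1.78 and -2.27, with -0.67 under the block and -0.0031 with limma-voom. Apart from leaving libraries out, the causes were not tested. Transcripts under 0.0689 to 0.0881 CPM, the floor of 3 counts, could not be measured at this depth.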
